A study of Ovis aries and Bos taurus with 15 samples.

Results

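The genes described here are 9 genes of the contractile apparatus of smooth muscle: ACTA2, TAGLN, SMTN, MYLK, MYL9, TPM1, TPM2, CNN1 and CALD1. They were taken by name, as every probe set whose platform annotation gives exactly 1 gene symbol that is one of the 9. This found 11 probe sets of 8 genes, among 9155 named genes on the array. MYLK, TPM1 and TPM2 had a pair of probe sets each, and MYL9, a regulatory light chain of myosin II, had no probe set under its name and is not analysed here. The study profiled total RNA of cultured endothelial cells on 15 Affymetrix arrays carrying bovine probes, in 3 groups of 5. Bovine cells labelled BAEC formed one control group, for which the labels give no treatment. Ovine cells labelled PAEC, which the title places in the lung, were given the vehicle DMSO or GW9662 at 5 µM for 24 h, and GW9662 is an irreversible antagonist of the nuclear receptor PPARγ. All cells were grown in DMEM with 10% FBS, and the labels name no line, passage, animal or pool. Nothing in them says that the 5 replicates of a group were separate cultures or animals, so the p-values measure only the spread between these samples, which may be technical.

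In smooth muscle, calcium bound to calmodulin activates the kinase encoded by MYLK, which phosphorylates the regulatory light chain of myosin II and starts contraction. Smooth muscle actin (ACTA2) forms the thin filament, tropomyosins (TPM1, TPM2) lie along it, and caldesmon (CALD1) and calponin (CNN1) bind actin and restrain myosin. Transgelin (TAGLN) and smoothelin (SMTN) bind actin filaments and mark contractile smooth muscle cells. Endothelial cells hold actomyosin too, where myosin light chain kinase acts on the junctions that control vessel permeability, and tropomyosins, caldesmon and transgelin occur in many cells that are not muscle. Transcription of these genes is driven by serum response factor with its partners of the myocardin family.

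The values are log2 expression values made with RMA, with array medians between 3.18 and 3.27. They hold no detection call. A group mean under 3 is therefore called here near the floor, and such a value cannot be told from no expression; 45.9% of all probe sets had a mean under 3 over the 15 arrays. Of the 11 probe sets, 4 were near the floor in all groups: those of ACTA2 and CNN1, the dimmer one of MYLK and the dimmer one of TPM2. The other 7, from 6 genes, were above 3 in every group mean. Sheep RNA was read on bovine probes, so between species a low ovine value can come from poor match of the probes. Species, the cells' origin and that match cannot be told apart. Vehicle replicate 1 stood apart most from its group, with an SD of 0.222 for its deviations from the group mean, against 0.104 to 0.143 for the other arrays. A measure of RNA quality, the 3′ minus 5′ difference over 6 control transcripts, moved with the groups. It lay between 1.07 and 1.30 on vehicle arrays, between 0.853 and 1.04 on GW9662 arrays and between 0.843 and 0.942 on bovine arrays (two-sided exact permutation p = 0.00794 for either group against vehicle, the smallest that 5 against 5 arrays can give). Vehicle arrays thus overlapped neither other group, so a fit that also holds this measure cannot tell it from the group. A call lost in such a fit does not show that the groups are alike.

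**Figure D1:**
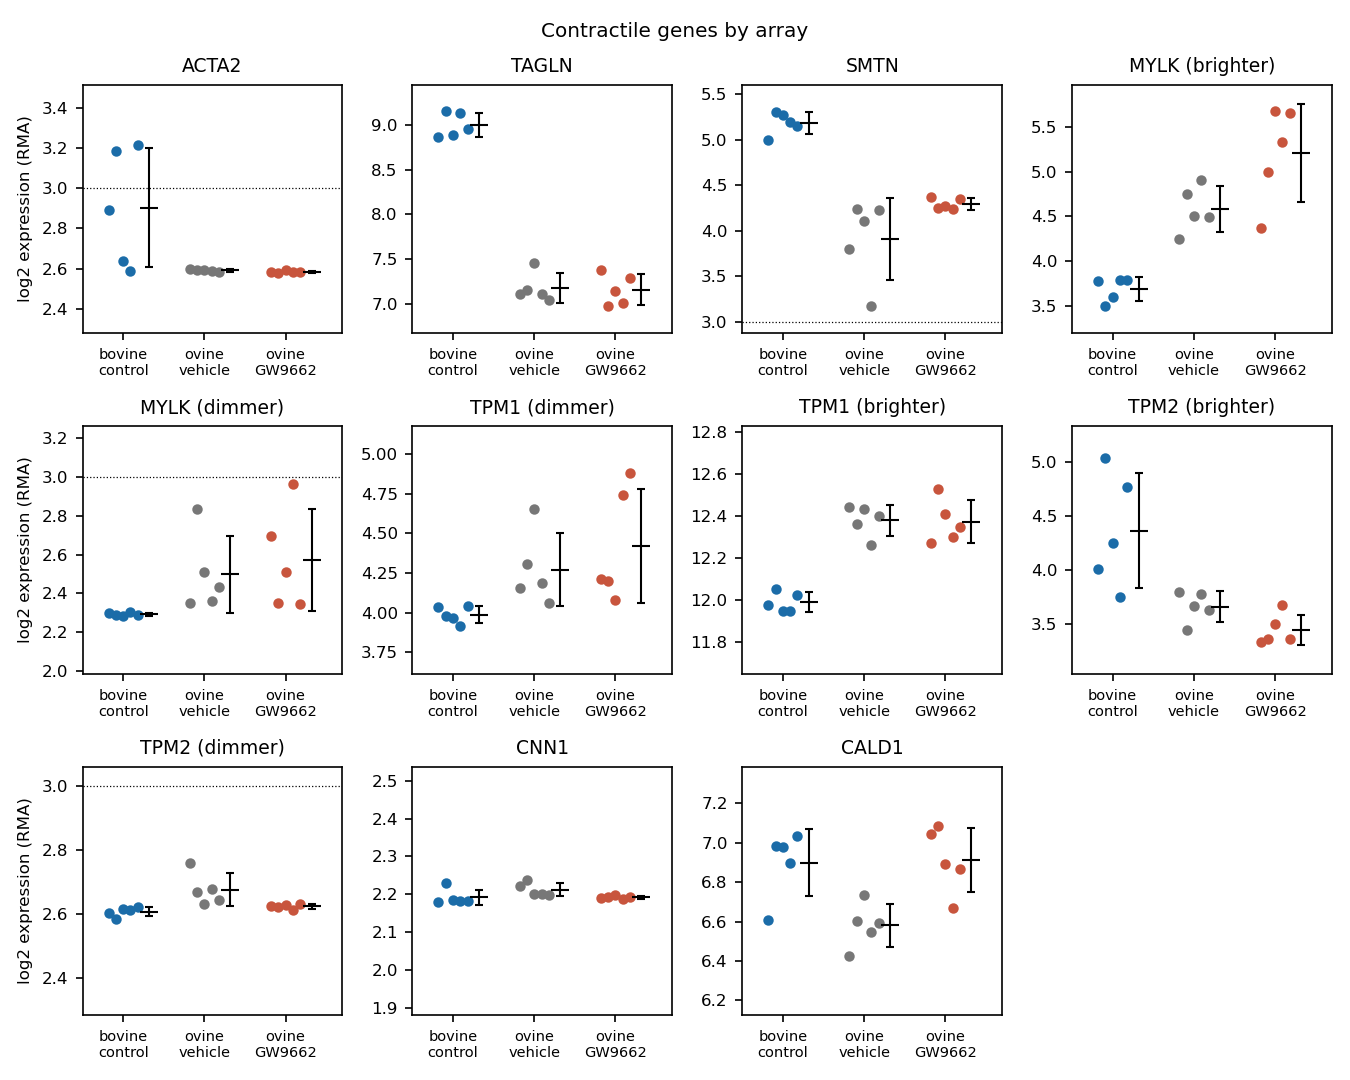
Log2 expression of the 11 probe sets on each array, with 1 point per array in replicate order and the mean ± SD of 5 arrays in black; the dotted line marks 3, and each panel has its own axis. TAGLN and SMTN lie higher on all 5 bovine arrays than on any ovine array, MYLK lies lower, and the GW9662 and vehicle arrays overlap in 10 of the 11 panels.

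The first comparison asked whether blocking PPARγ changed these genes in ovine PAEC. None of the 11 probe sets passed the threshold of 0.05 after Benjamini-Hochberg adjustment over all 24016 probe sets in limma, where 0.183% of all probe sets passed. The smallest adjusted p was 0.188. At an unadjusted p under 0.05 there were 4 of 11, with 2 higher and 2 lower, against 21.4% of all probe sets. The median difference was -0.0060 on the log2 scale, against -0.016 over all probe sets, and 5 values were positive and 6 negative. No alternative setting gave a call for any of them, while the count over all probe sets went from 44 (35 higher and 9 lower) to 67 (61 higher and 6 lower) with each array centred on its median. The intervals below are 95% intervals of each difference, not adjusted for the number of probe sets.

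CALD1, the actin-binding inhibitor of myosin, came closest. It read 6.43, 6.61, 6.73, 6.55 and 6.59 on the vehicle arrays and 7.04, 7.09, 6.89, 6.67 and 6.87 on the GW9662 arrays. Of the treated arrays, 4 lay above every vehicle array and replicate 4 lay among them. The log2 difference was 0.33 (SE 0.084, interval 0.14 to 0.52, adjusted p = 0.188). In a fit that also held the 3′ minus 5′ measure, on which the groups did not overlap, it was 0.035. MYLK, the light chain kinase, had the widest range on its brighter probe set. Its vehicle arrays read 4.25, 4.75, 4.50, 4.91 and 4.49, and its GW9662 arrays 4.37, 5.00, 5.67, 5.33 and 5.66. Again 4 treated arrays lay above all vehicle arrays, with treated replicate 1 low. The difference was 0.62 (SE 0.26, interval 0.046 to 1.20, adjusted p = 0.222). The dimmer MYLK probe set, near the floor, gave 0.076 (adjusted p = 0.719).

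SMTN, the smoothelin gene, was at 0.38 (SE 0.19, interval -0.052 to 0.82, adjusted p = 0.256). The 5 GW9662 arrays lay close together, at 4.37, 4.24, 4.27, 4.24 and 4.35. The vehicle arrays were spread over 3.80, 4.24, 4.11, 3.17 and 4.23, and without vehicle replicate 4, the lowest, the difference was 0.20. TAGLN, which binds and bundles actin filaments, did not separate the groups. Vehicle arrays read 7.11, 7.15, 7.46, 7.11 and 7.05 and GW9662 arrays 7.38, 6.97, 7.14, 7.01 and 7.28. The difference was -0.020 with an interval from -0.25 to 0.21 (adjusted p = 0.90), so a change of more than about that size in either direction lies outside the interval.

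Of the tropomyosins, which run along the actin filament, the brighter TPM1 probe set had the narrowest interval among probe sets above 3. It was at -0.0072 (interval -0.13 to 0.11, adjusted p = 0.932), with means of 12.37 ± 0.10 for GW9662 and 12.38 ± 0.073 for vehicle (SD, n = 5). The dimmer TPM1 probe set was at 0.15 (interval -0.26 to 0.56, adjusted p = 0.575), with treated replicates 4 and 5 at 4.74 and 4.88 and the other three between 4.08 and 4.21. TPM2 was at -0.21 on its brighter probe set (interval -0.41 to -0.023, adjusted p = 0.218) and at -0.052 on the one near the floor (adjusted p = 0.230). On the brighter one, 4 of 5 GW9662 arrays (3.34, 3.36, 3.49, 3.67 and 3.36) were below 4 of 5 vehicle arrays (3.79, 3.44, 3.66, 3.77 and 3.63). ACTA2 lay near the floor at 2.58 to 2.59 on treated and 2.58 to 2.60 on vehicle arrays, with a difference of -0.0060 (adjusted p = 0.588). CNN1 lay at 2.19 ± 0.0042 against 2.21 ± 0.017 (difference -0.019, adjusted p = 0.263). It was the 1 probe set of 11 whose groups did not overlap, as 14.6% of all probe sets did not. At that brightness neither value shows whether ACTA2 or CNN1 responded.

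**Figure D2:**
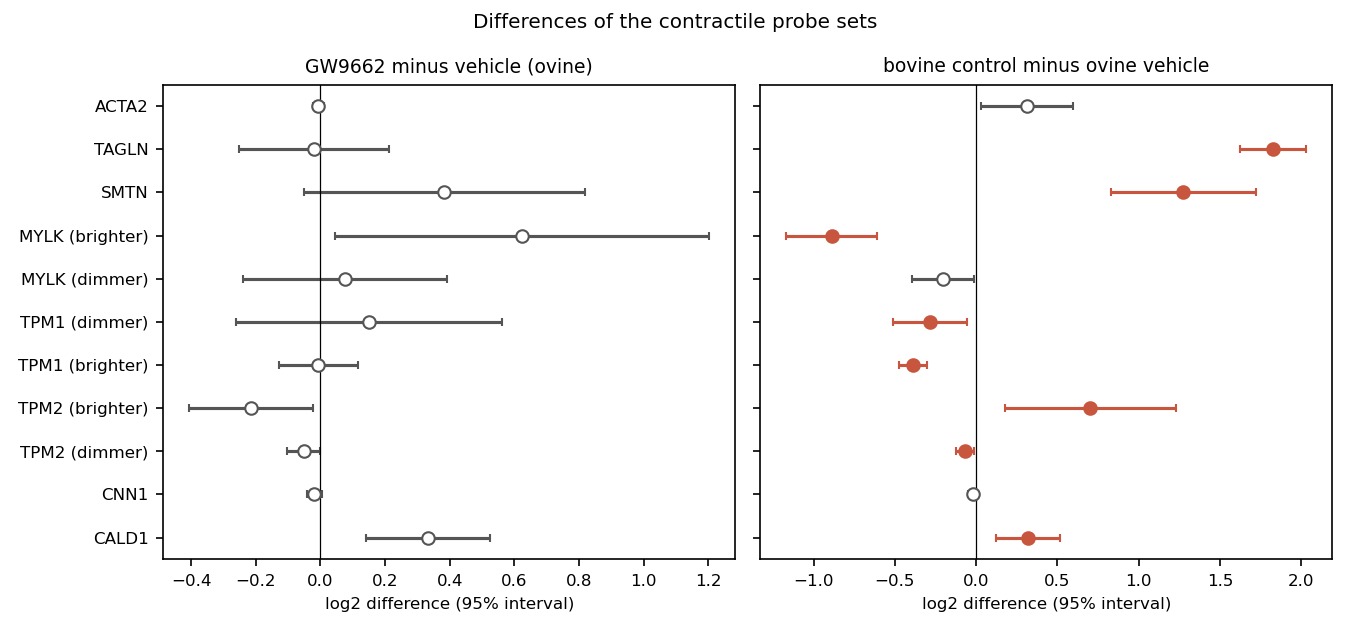
Log2 difference of each of the 11 probe sets with its 95% interval (unadjusted), for GW9662 minus vehicle on the left and bovine control minus ovine vehicle on the right; filled points passed an adjusted p of 0.05. No point is filled on the left, where the values run from -0.21 for TPM2 to 0.62 for MYLK, and 8 are filled on the right.

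The second comparison set the bovine BAEC against the ovine PAEC given vehicle. TAGLN, SMTN, CALD1 and the brighter TPM2 probe set were higher in bovine cells, and MYLK and both TPM1 probe sets were lower. In all, 8 of 11 probe sets passed, 4 higher and 4 lower, in a comparison where 45.2% of all probe sets passed (15.6% higher and 29.6% lower). By the brightest probe set of each gene, 6 of 8 genes passed, 4 higher and 2 lower, against 49.2% of all genes (21.9% higher and 27.3% lower). The median over the 8 genes was 0.32 on the log2 scale, against -0.022 over all genes. Over the 11 probe sets it was -0.020, against -0.029 over all probe sets, with 5 values positive and 6 negative. With centred arrays 6 probe sets passed (4 higher and 2 lower), and with a second quantile normalisation 5 did (2 higher and 3 lower). Over all probe sets the calls split into 3740 higher and 7120 lower, and into 3740 and 2715 with centring. Against the GW9662 arrays, which share the bovine arrays with this comparison, 5 of 11 passed, 3 higher and 2 lower, where 29.4% of all probe sets passed. Without vehicle replicate 1 the count stayed at 8, and without bovine replicate 2, bovine replicate 5 or vehicle replicate 4 it was 5.

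TAGLN showed the largest difference. The bovine arrays read 8.87, 9.15, 8.89, 9.14 and 8.95 against 7.05 to 7.46 on the vehicle arrays, so that the lowest bovine array stood far above the highest ovine one. The difference was 1.83 (SE 0.090, adjusted p = 5.8e-07), or 3.54-fold. It passed in all 21 alternative settings, with adjusted p from 5.4e-09 to 0.00436, and it was the 1 probe set that passed a test against a 1.5-fold difference. Against the GW9662 arrays it was 1.85. SMTN, the other marker of contractile smooth muscle above the floor, read 5.00, 5.31, 5.28, 5.20 and 5.15 on bovine arrays. All of these were above the highest ovine array of either group, at 4.37. The difference from vehicle was 1.27 (SE 0.20, adjusted p = 0.00103), or 2.42-fold, and 0.89 from the GW9662 arrays. In a fit that also held the 3′ minus 5′ measure, on which bovine and vehicle arrays did not overlap, it was 1.31 but did not pass (adjusted p = 0.274, range over the alternatives 3.3e-06 to 0.274).

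MYLK had the largest lower value among the contractile genes in the bovine cells. Its brighter probe set read 3.78, 3.50, 3.60, 3.79 and 3.79 there, below the lowest vehicle array at 4.25. The difference was -0.89 (SE 0.12, adjusted p = 0.000521), with 3.69 ± 0.13 against 4.58 ± 0.26 (SD, n = 5). From the GW9662 arrays it was -1.51. The MYLK probe set near the floor was at -0.21 and did not pass (adjusted p = 0.0722), also without overlap of the groups, as in 53.0% of all probe sets. For MYLK the order of the groups was bovine, then vehicle, then GW9662, and the GW9662 and vehicle arrays overlapped.

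CALD1 was higher in the bovine cells than in vehicle cells by 0.32 (SE 0.086, adjusted p = 0.0191). Its bovine arrays read 6.61, 6.98, 6.98, 6.90 and 7.03, of which replicate 1 fell within the vehicle range of 6.43 to 6.73. Against the treated cells no difference passed: the bovine mean of 6.90 ± 0.17 and the GW9662 mean of 6.91 ± 0.16 differed by -0.013 (interval -0.24 to 0.22, adjusted p = 0.919). With the 3′ minus 5′ measure in the fit the difference from vehicle was -0.049. Bovine and GW9662 arrays alike read lower than vehicle arrays on that measure, without overlap, so measure and group cannot be told apart. The part of RNA quality in the CALD1 values was not tested. The vehicle group is common to both comparisons, so their CALD1 values are not independent.

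The tropomyosins went in opposite directions. Both TPM1 probe sets were lower in bovine cells without overlap of the groups. The brighter one read 11.98, 12.05, 11.95, 11.95 and 12.02 on bovine arrays against 12.44, 12.36, 12.43, 12.26 and 12.40 on vehicle arrays, a difference of -0.39 (SE 0.037, adjusted p = 4.9e-05), and -0.38 against GW9662 arrays. It passed in each of the 10 fits that left out an array, but not with the 3′ minus 5′ measure in the fit (-0.37, adjusted p = 0.0893) or against a 1.5-fold difference. The dimmer TPM1 probe set was at -0.28 (SE 0.10, adjusted p = 0.0458), and passed in 3 of those 10. TPM2 was higher by 0.70 on its brighter probe set (SE 0.23, adjusted p = 0.0374), with bovine arrays at 4.01, 5.03, 4.24, 3.75 and 4.77. Bovine replicate 4 lay among the vehicle arrays, which ran from 3.44 to 3.79. The call was lost without bovine replicate 2 (0.53, adjusted p = 0.0618) or bovine replicate 5 (0.60, adjusted p = 0.0783), and in 7 of the 10 fits that left out an array. The other TPM2 probe set passed in the opposite direction at -0.069 (adjusted p = 0.0408), with 2.61 ± 0.014 against 2.68 ± 0.051, near the floor in both groups. The probe sets of TPM2 therefore disagree, and the second one bears on no level of expression.

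ACTA2, the actin isoform that defines contractile smooth muscle, was near the floor on all 10 ovine arrays, between 2.58 and 2.60. On the bovine arrays it read 2.89, 3.18, 2.64, 2.59 and 3.22. Replicates 2 and 5 were above 3 and replicate 4 was at the ovine level. The difference from vehicle was 0.31 (SE 0.12) and did not pass (adjusted p = 0.0656, range over the alternatives 0.0222 to 1). The bovine arrays with the highest ACTA2 values, replicates 2 and 5, were also those with the highest TPM2 values, and replicate 4 was lowest for both genes. In TAGLN, replicates 2 and 4 were the highest bovine arrays, so the order was not shared there. Among all pairs of contractile probe sets, ACTA2 and the brighter TPM2 had the highest Pearson's r of deviations from the group means, 0.82 over 15 arrays. That value is the highest of many, and the next highest was 0.41. ACTA2 had an SD of 0.295 on bovine arrays, against 0.0064 on vehicle and 0.0057 on GW9662 arrays. The correlation therefore rests on the 5 bovine arrays, 3 of them with ACTA2 under 3. CNN1, calponin, was near the floor in all groups, at 2.18 to 2.23 on bovine and 2.20 to 2.24 on vehicle arrays, and did not differ past the threshold (-0.020, adjusted p = 0.240).

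**Figure D3:**
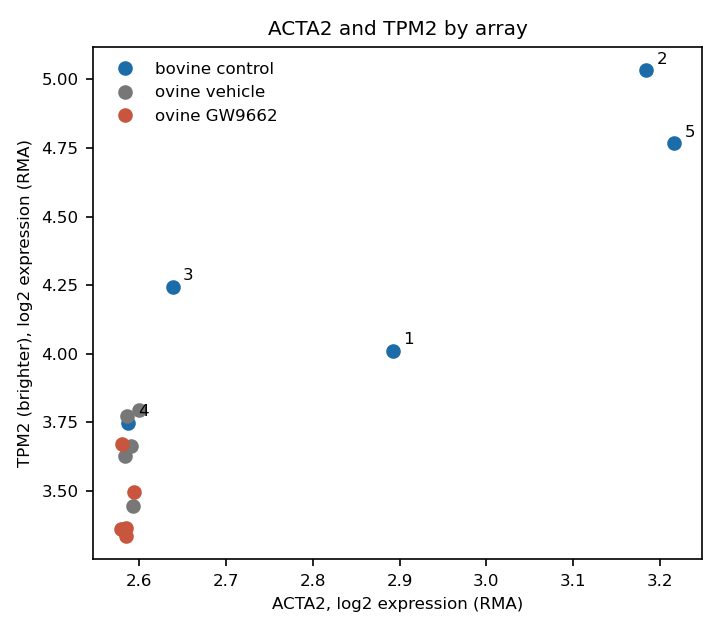
ACTA2 against the brighter TPM2 probe set, as log2 expression, with 1 point per array and the replicate number beside each bovine array. Bovine replicates 2 and 5 are high for both genes (3.18 and 3.22 for ACTA2, 5.03 and 4.77 for TPM2), and the 10 ovine arrays lie between 2.58 and 2.60 for ACTA2.

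**Figure D4:**
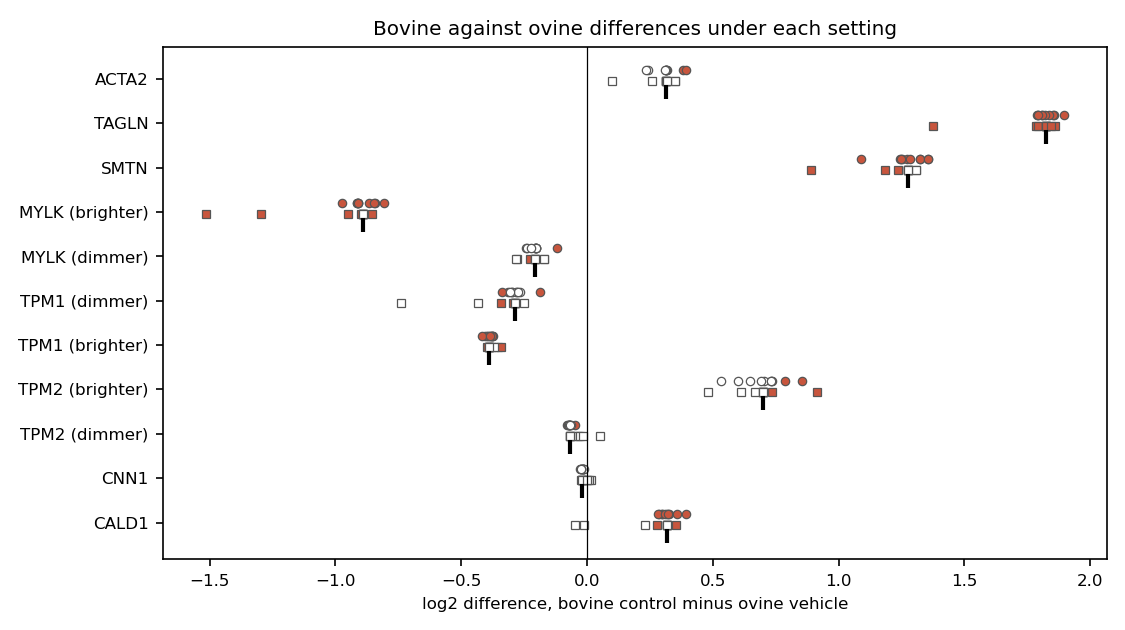
Log2 difference between bovine control and ovine vehicle arrays for each probe set, as a black bar for the reported fit, as circles for the 10 fits that left out an array and as squares for the other settings; filled symbols passed an adjusted p of 0.05. TAGLN is filled throughout, from 1.38 to 1.90, and CALD1 reaches from -0.049 to 0.39.

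Genes around the contractile apparatus were grouped in 5 further lists of 87 genes, of which 57 were measured. Between bovine and vehicle cells 20 were higher and 14 lower, or 59.6% against 49.2% of all genes. Of 8 measured paralogues of the contractile genes, 4 were higher and 1 was lower (62.5% called), and the median was 0.32. TAGLN3, the transgelin of neurons, was higher by 3.92 (SE 0.14, 7.04 ± 0.25 against 3.12 ± 0.20, SD, n = 5, adjusted p = 4.9e-08). Its vehicle mean lay just above 3, so the difference may be a bound in signal. TAGLN2, the widely expressed transgelin, was instead lower at -0.72 (SE 0.075, adjusted p = 8.0e-05). The 3 transgelin genes thus did not share a direction. CNN3, the calponin found outside muscle, was higher by 0.64 (adjusted p = 0.000207), and TPM3, a tropomyosin of many cell types, by 0.25 (adjusted p = 0.0083). The second TPM3 probe set, also bright, was at 0.89 (adjusted p = 7.6e-05).

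Few genes of actin and myosin themselves passed, with 16.7% and 30.0% called against 49.2% of all genes, but 2 of 6 and 7 of 10 were near the floor in both groups and show no level. Of 6 other actin and ARP2/3 genes 1 was lower, and the median was -0.038: ACTG1, a cytoplasmic actin, was at -0.14 (adjusted p = 0.0392), a call lost in 15 alternatives and reversed in sign in 1. Its other probe set, also bright, was at -0.15 (adjusted p = 0.00961). Of 10 myosin II chains 3 were lower and 0 higher, and all 3 called (MYH11, MYL2 and MYL4, muscle chains) were near the floor in both groups.

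Of 23 genes of actin crosslinking and focal adhesion 14 were higher and 5 lower, or 82.6% against 49.2% of all genes (21.9% higher and 27.3% lower). The median was 0.34, against -0.022 over all genes. CSRP2, a LIM protein of smooth muscle, was higher by 2.27 (SE 0.059, 9.14 against 6.88, adjusted p = 7.8e-09) and PDLIM1, an adaptor on actin stress fibres, by 0.50 (adjusted p = 9.9e-07). VCL, vinculin of focal adhesions, was lower at -1.01 (adjusted p = 7.1e-07) and FHL1, a LIM protein of muscle, at -0.84 (adjusted p = 5.7e-07). Of 10 regulators 2 were higher and 4 lower, or 60.0% against the same 49.2%, and the median was -0.011. KLF4, a zinc finger factor that represses smooth muscle genes, was lower at -3.16 (SE 0.077, 6.07 against 9.22, adjusted p = 5.1e-09). HOPX, a cofactor that restrains serum response factor, was lower at -3.36 with a bovine mean of 2.62 near the floor, so that its difference is a lower bound in signal. SRF, serum response factor itself, was near the floor, at 2.40 against 2.36 (adjusted p = 0.533), and TEAD4 was at 0.39 (adjusted p = 0.000387) and MEF2A at -0.34 (adjusted p = 0.00239).

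**Figure D5:**
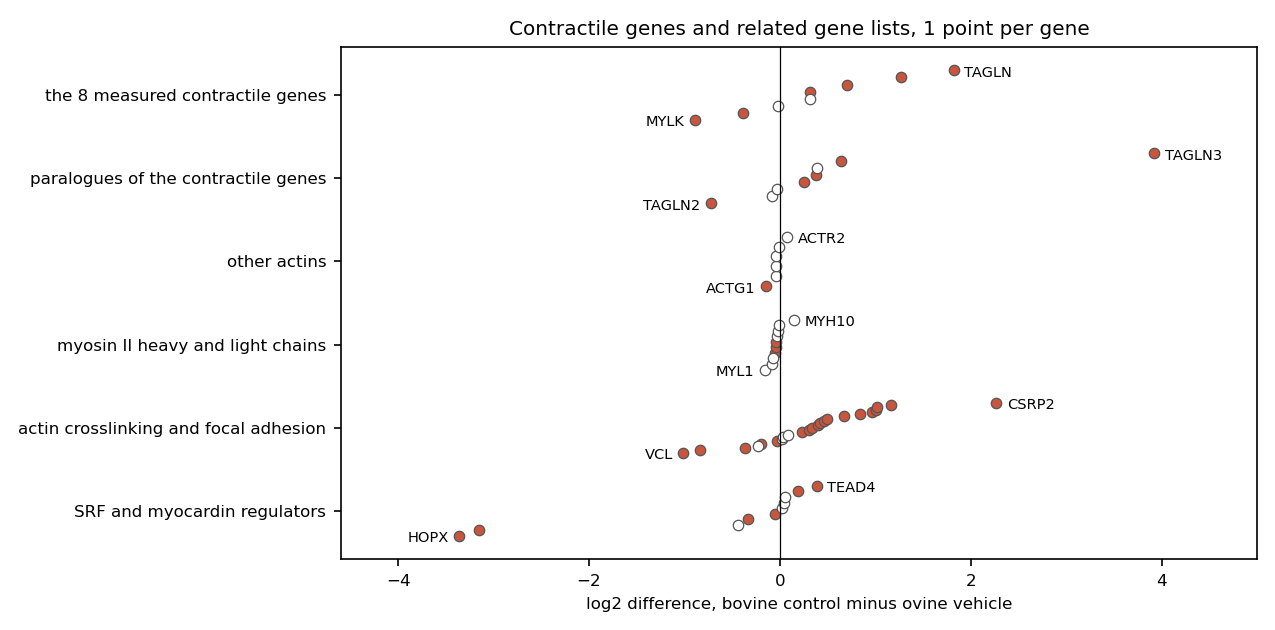
Log2 difference between bovine control and ovine vehicle arrays for each measured gene of the contractile genes and of 5 related lists, with 1 point per gene (its brightest probe set), filled where the adjusted p was under 0.05, and the lowest and highest gene of each list named. TAGLN3 reaches 3.92 while actins and myosins lie between -0.15 and 0.15, and HOPX and KLF4 lie beyond -3.

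With GW9662, 0 of the same 57 genes passed in limma, against 0.218% of all genes, and at an unadjusted p under 0.05 there were 22 of 57, where 20.1% of all genes were. The closest was TEAD4, at -0.31 (3.28 against 3.58, adjusted p = 0.123), without overlap of the groups. CSRP1, a LIM protein of smooth muscle, was at -0.29 (adjusted p = 0.176), FHL3 at -0.17 (adjusted p = 0.205), GATA6 at 0.20 (adjusted p = 0.213), ACTG1 at -0.14 (adjusted p = 0.217) and TAGLN2 at -0.14 (adjusted p = 0.249). Of the 23 crosslinking and adhesion genes 17 had a negative value (median -0.070), as did 9 of the 10 myosin chains (median -0.036), of which 7 were near the floor. Negative values prevailed elsewhere too: 60.7% of all genes had one (median -0.015), as did 15 of 18 endothelial, 7 of 7 pericyte and 17 of 17 striated muscle markers. Of these lists, 4 endothelial, 6 pericyte and 13 striated muscle markers were near the floor in both groups. Centring each array moved the median of all probe sets from -0.016 to 0.027, a shift as large as the myosin median but smaller than the crosslinking and adhesion median. No gene of either list passed, so no direction is given for these lists.

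Markers of the cells that could carry these genes were read in the same arrays. Of 16 smooth muscle markers 8 were measured, and 7 of them were near the floor in every group, among them MYH11 (2.52 to 2.56 in the group means), DES (1.93 to 1.95) and LMOD1 (2.25 to 2.27); SMTN was the exception. Their mean log2 level, with ACTA2, CNN1 and SMTN included, lay between 2.75 and 2.88 on bovine arrays, 2.51 and 2.67 on vehicle arrays and 2.63 and 2.66 on GW9662 arrays. Of 7 measured pericyte markers 6 were near the floor in each group, PDGFRB among them, and the exception was MCAM, which endothelial cells carry too. Of 13 fibroblast markers 8 were near the floor in each group, including COL1A1 (2.43 to 2.46) and PDGFRA (2.81 to 2.88), while COL1A2, COL3A1, THY1, S100A4 and FBLN1 were above 3. Between bovine and vehicle cells 3 of the 13 were higher and 6 lower, or 69.2% against 49.2% of all genes (21.9% higher and 27.3% lower). Of the values 10 were negative, and the median was -0.029, against -0.022 over all genes. The called genes above the floor were FBLN1, an extracellular matrix protein, at 4.87 (adjusted p = 2.2e-07), S100A4, a calcium-binding protein, at -0.54 (adjusted p = 1.9e-06), and COL1A2, a collagen chain, at 0.91 (adjusted p = 4.1e-06). The other called genes were near the floor in both groups. The second COL1A2 probe set, also bright, was at 0.29 (adjusted p = 0.00198). The list's mean level lay between 5.11 and 5.19 on bovine and between 4.66 and 4.81 on vehicle arrays. FBLN1 had by far the largest difference. The list's median gene, DCN, was near the floor in both groups (2.22 against 2.25), so the median bears on no level of expression. The part of these markers in the contractile genes' differences was not tested. The endothelial markers PECAM1 (11.5 to 11.7) and CDH5 (11.3 to 11.6) were bright in all groups, as 16 of 18 endothelial markers were above 3 in bovine and 13 in vehicle cells, whereas VWF was near the floor (2.28 to 2.31). Of the 18 endothelial markers 8 were higher and 4 lower in bovine than in vehicle cells, or 66.7% against 49.2% of all genes. The median was 0.25, against -0.022 over all genes. The list's mean level lay between 8.27 and 8.33 on bovine and between 7.77 and 7.86 on vehicle arrays. ROBO4, a guidance receptor of endothelium, was higher by 1.67 (adjusted p = 1.3e-07), and the transcription factors FLI1 and SOX18 by 0.66 (adjusted p = 4.8e-06) and 1.40 (adjusted p = 5.5e-06). CLDN5, a tight junction protein, was at 5.03 against 2.45 near the floor, a difference that is a bound in signal. ERG and ENG (endoglin), both bright, were lower at -0.20 (adjusted p = 0.00093) and -0.29 (adjusted p = 0.0103). The other lower calls were near the floor in both groups. With GW9662 the marker genes named by the same rule did not pass in limma, with MCAM at -0.19 (adjusted p = 0.178), COL3A1 at 0.11 (adjusted p = 0.188), ROBO4 at -0.18 and ENG at -0.23 (adjusted p = 0.205 each), and MYH1 at -0.20 (adjusted p = 0.233). The other bright COL3A1 probe set had the opposite sign, at -0.10 (adjusted p = 0.266). Of the 18 endothelial markers 3 were positive. The largest was KDR at 1.15 (3.79 ± 0.81 against 2.64 ± 0.10, SD, n = 5, adjusted p = 0.217), with vehicle near the floor. Its other probe set, near the floor in both groups, was at -0.034. In RNA from whole cultures, fewer cells of a type and less RNA per cell cannot be told apart.

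For the 3 genes with group means of 5 or more throughout, TPM1, TAGLN and CALD1, the genes of most similar array-to-array variation were sought among 4904 others, by Pearson's r of the deviations from the group means over 15 arrays. These values are the highest of many and describe these arrays, which share their processing. CALD1 came closest to GARS1 (glycyl-tRNA synthetase, r = 0.91), CPNE2 (0.87) and AFAP1, an actin filament-associated protein (0.87). TPM1 came closest to SPRYD4 (0.84), HNRNPC (0.77) and LOC615809 (0.77), and TAGLN to CNOT2 (0.84), CHD4 (0.83) and DPP3 (0.82). The other contractile genes were too dim for this search.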

How the data were processed

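RNA of 15 samples was measured on 1 Affymetrix bovine array each. The authors deposited log2 values per probe set, for which the submitters' processing notes name RMA; its version is not given in the sources used here. RMA includes background correction and quantile normalisation, so arrays share one distribution by construction. From these values, 112 control probe sets were left out and 24016 tested, of which 13292 had 1 gene symbol, 86 several and 10638 none. Each comparison was fitted on its own 10 arrays in limma (version 3.58.1, R 4.3.3; lmFit, eBayes), and p-values were adjusted by Benjamini and Hochberg's method over all probe sets, at a threshold of 0.05. The code was tested on simulated data. In lists, each gene was read from its brightest probe set on the arrays compared. The number of arrays limits the precision. The contractile genes and the lists were chosen with earlier results of these data known. Named were all contractile probe sets, fixed defining markers and, per list, up to 4 called genes of smallest p, or up to 2 where none was called. Genes near the floor in both groups were otherwise given by count. SRF, the called myosin chains, DCN, KDR, and ERG and ENG between bovine and vehicle cells were named after their values were seen. One further gene list is not reported here.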

Additional observations from a re-analysis of the deposited data

Results flagged for a closer look

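In 33 groups of 5 arrays (11 probe sets in 3 groups), a single array stood far from the other four in 2, where chance gives about 1 in 20. The TAGLN value of vehicle replicate 3 was 7.46, with its nearest neighbour at 7.15; without that array the GW9662 difference of TAGLN was 0.051 in place of -0.020. The CNN1 value of bovine replicate 2 was 2.23, with its nearest neighbour at 2.18, near the floor of the arrays.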

How the results depend on the processing

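No alternative gave a GW9662 call for a contractile probe set (0 of 11 throughout, also with any array left out). Over all probe sets the GW9662 count of 44 became 67 with centred arrays (61 higher and 6 lower), 76 without dim probe sets, 26 with trend and robust settings and 237 with all 15 arrays in 1 fit. A second quantile normalisation gave 61 (38 higher and 23 lower). The count was 0 with the replicate block (3205 at an unadjusted p under 0.05), 0 with the 3′ minus 5′ covariate (1312) and 0 in the test against 1.5-fold (17), and 9 to 62 with 1 array left out. Between bovine and vehicle arrays, 10860 became 6455 with centring, 6798 with quantile normalisation (3224 higher and 3574 lower), 6586 without dim probe sets, 5396 with the replicate block, 1601 with the covariate, 4020 with 1 probe set per gene, 1293 in the test against 1.5-fold and 7052 with GW9662 arrays in place of vehicle; leaving out 1 array gave 7335 to 10858. The 8 contractile calls became 5 with quantile normalisation, 5 with the replicate block, 2 with the covariate, 1 in the test against 1.5-fold, 5 with GW9662 arrays, and 5 to 8 with 1 array left out. Vehicle arrays overlapped neither other group on the covariate, so the fits that hold it cannot tell it from the group. Replicate numbers are shared by the groups, and deviations of same-numbered arrays correlated at -0.19 to 0.17. These values do not settle whether the numbers pair the samples, which the labels do not say. The main fits did not pair them.

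Signs turned in small differences. For GW9662, ACTA2 was 0.036 with centring, 0.027 with quantile normalisation and 0.0051 with the covariate, TAGLN was 0.023 with centring and -0.076 to 0.051 with 1 array left out, and the brighter TPM1 probe set was 0.035 with centring, 0.030 with quantile normalisation and -0.047 to 0.017 with 1 array left out. The dimmer MYLK probe set was -0.022 to 0.16 with 1 array left out, the dimmer TPM2 probe set was 0.013 with the covariate, CNN1 was 0.023 with centring and GATA6 was -0.013 with the covariate. Between bovine and vehicle arrays the dimmer TPM2 probe set was 0.052 with the covariate, CNN1 was 0.015 with centring and 0.0072 with quantile normalisation, CALD1 was -0.049 with the covariate and -0.013 with GW9662 arrays, ACTG1 was 0.040 with the covariate and MCAM, -0.13 as fitted, was 0.053 with GW9662 arrays. The cause was not tested. Of all other single-gene values, 610 between species and 416 for GW9662 kept direction and side of the threshold, 85 between species lost the call and 5 gained one.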

Other observations

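Genes of striated muscle were also read. Of 17 measured markers, 13 were near the floor in vehicle cells and 15 in bovine cells. MYH7, the slow myosin heavy chain of heart and skeletal muscle, was above 5 in both, at 7.01 in bovine and 5.79 in vehicle cells (log2 difference 1.22, SE 0.053, adjusted p = 2.5e-07 in limma). Its other probe sets passed in the opposite direction, at -0.41 (4.13 against 4.55) and, near the floor, at -0.026, so the MYH7 probe sets disagree. CKM, muscle creatine kinase, was at 7.79 in vehicle, 7.75 in GW9662 and 2.57 in bovine cells on one probe set, while its other probe set was near the floor, at 2.41 in vehicle and 2.39 in bovine cells. Among the genes of the lists, probe sets past the threshold in opposite directions were also found for ACTN4, CNN2, TNS1 and TPM2.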
